A study of Mus musculus with 44 samples.

Results

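The comparison described here is that of late with early inner cell mass (ICM) in the control embryos of the *Pou5f1* line, by ATAC-seq. It rests on 8 of the 44 libraries of the series, the 4 early and the 4 late ICM libraries of *Pou5f1* Ctrl embryos, and on all 152393 peaks with a value in each library. ATAC-seq reads open chromatin from the places where the transposase Tn5 inserts into DNA. The values are rlog values, a log2 scale made by the authors with DESeq2 from Tn5 insertions in 200 bp windows, so that a difference of 1 stands for about 2 times as many insertions.

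*Pou5f1* Ctrl embryos were not wildtype. They came from females with a floxed *Pou5f1* and Zp3-Cre, a Cre that acts in the growing oocyte, so the maternal copy was deleted and the paternal copy was intact. Early ICM stands for E3.75 and late ICM for E4.5. Embryos were taken at E2.5 from superovulated females and kept until those stages with 1 μM of PD0325901, an inhibitor of MEK, and the outer trophectoderm was removed by immunosurgery. Each library was made from 20 to 40 ICMs, and the labels give B6C3F1 as the background. Both stages had the inhibitor, so no value below is for an ICM with free FGF signalling. *Sox2* Ctrl embryos (maternal *Sox2* deleted) and *Pou5f1*-KO embryos (maternal and zygotic *Pou5f1* deleted) and *Sox2*-KO embryos (maternal and zygotic *Sox2* deleted) had the same culture and likewise 4 libraries at each stage. The *Pou5f1* Ctrl line also has 3 libraries of morulae, at E2.75, and 3 of late morulae, at E3.25, all from whole embryos without inhibitor.

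The early ICM holds cells that can still become epiblast, the source of the fetus, or primitive endoderm, the source of the yolk sac lining. OCT4, encoded by *Pou5f1*, and SOX2 bind a joint DNA element in pluripotent cells. GATA6 and GATA4 are transcription factors of the primitive endoderm and GATA3 of the trophectoderm, and GATA factors bind the core GATA. FGF signals through MEK and ERK turn ICM cells toward primitive endoderm, and a MEK inhibitor holds them in the epiblast state.

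Of the 152393 peaks, 120 opened (0.0787%) and 274 closed (0.18%) from early to late ICM, by limma with an adjusted p under 0.05. The closed peaks were strong in the early ICM, with a median rlog of 4.54, and the opened peaks were weak, with a median of 0.85, where the median of all peaks was 2.48. The peaks that closed held the word AGATAAG, the GATA element, in 104 of 274 windows, where 7.71% of all windows held it. Of the 120 opened windows, 8 held the joint OCT4 and SOX2 element (6.67%, against 3.00% of all windows), 12 the AP-1 element (10.0% against 3.33%) and 6 the TFE3 element (5.0% against 2.10%). These are small counts without a test, and the AP-1 count fell to 0 of 48 without early library 1. The following sequences show the words in their place. They are the called peaks with the largest difference that hold each word, outside exons, on the plus strand of GRCm38, with the copies of the word in capitals. The first 4 closed and held AGATAAG or its reverse complement.

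*Ptprn2* intron, chr12:116907304-116907503: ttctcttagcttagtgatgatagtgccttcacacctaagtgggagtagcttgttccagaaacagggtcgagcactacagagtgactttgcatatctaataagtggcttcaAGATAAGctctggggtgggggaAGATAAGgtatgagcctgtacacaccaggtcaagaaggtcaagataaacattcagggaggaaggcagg
*Tmem56* intron, chr3:121247860-121248059: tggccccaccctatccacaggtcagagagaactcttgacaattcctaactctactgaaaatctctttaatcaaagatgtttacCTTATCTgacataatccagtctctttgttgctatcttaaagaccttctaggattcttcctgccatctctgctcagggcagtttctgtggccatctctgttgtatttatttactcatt
*Myo16* intron, chr8:10181491-10181690: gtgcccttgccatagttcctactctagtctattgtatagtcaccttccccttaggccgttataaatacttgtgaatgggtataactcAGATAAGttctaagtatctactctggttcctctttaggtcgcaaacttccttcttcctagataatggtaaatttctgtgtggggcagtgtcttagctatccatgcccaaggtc
Intron of 8030443G20Rik near *Rab3b*, chr4:108969590-108969789: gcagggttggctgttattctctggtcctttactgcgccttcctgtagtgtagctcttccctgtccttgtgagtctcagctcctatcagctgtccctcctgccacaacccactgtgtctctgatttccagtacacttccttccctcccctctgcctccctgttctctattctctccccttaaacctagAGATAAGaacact

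The next 4 opened. The window near *Dhx35* and a window 1.97 kb upstream of *Btbd11* held the OCT4 and SOX2 element (the SOX part TTGT, any 1 base, then the OCT part ATGCAAAT, with up to 2 mismatches), the *Arhgef18* window held the AP-1 word TGANTCAT and the *Dnajc3* window held the TFE3 word TCACGTG. Words on the other strand appear as their reverse complement.

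Near *Dhx35*, chr2:159235072-159235271: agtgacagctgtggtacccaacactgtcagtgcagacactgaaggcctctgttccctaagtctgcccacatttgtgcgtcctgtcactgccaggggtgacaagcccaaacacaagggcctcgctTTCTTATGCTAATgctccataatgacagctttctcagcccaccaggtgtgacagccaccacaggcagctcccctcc
Upstream of *Btbd11*, chr10:85384750-85384949: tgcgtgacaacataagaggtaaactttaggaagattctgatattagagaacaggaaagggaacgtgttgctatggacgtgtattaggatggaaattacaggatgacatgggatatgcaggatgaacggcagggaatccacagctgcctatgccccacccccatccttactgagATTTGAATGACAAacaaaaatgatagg
*Arhgef18* intron, chr8:3418260-3418459: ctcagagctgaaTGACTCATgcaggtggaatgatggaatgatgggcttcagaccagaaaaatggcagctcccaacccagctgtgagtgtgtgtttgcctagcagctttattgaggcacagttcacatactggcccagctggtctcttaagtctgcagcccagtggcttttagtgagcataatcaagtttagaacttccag
*Dnajc3* intron, chr14:118977530-118977729: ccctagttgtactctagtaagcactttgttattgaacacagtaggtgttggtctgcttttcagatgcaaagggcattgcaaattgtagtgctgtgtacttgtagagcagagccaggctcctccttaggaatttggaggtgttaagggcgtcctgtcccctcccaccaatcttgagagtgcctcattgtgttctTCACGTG

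The last pair are the peak with the largest opening, which held none of the 25 words searched and so has no capitals, and the closed peak in an intron of *Gata4*, with the nuclear receptor word TCAAGGTCA in capitals as its reverse complement.

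Upstream of *Sqle*, chr15:59302241-59302440: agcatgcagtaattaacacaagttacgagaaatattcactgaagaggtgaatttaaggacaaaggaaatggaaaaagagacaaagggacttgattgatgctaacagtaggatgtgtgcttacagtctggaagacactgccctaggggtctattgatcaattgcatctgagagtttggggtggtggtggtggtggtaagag
*Gata4* intron, chr14:63221966-63222165: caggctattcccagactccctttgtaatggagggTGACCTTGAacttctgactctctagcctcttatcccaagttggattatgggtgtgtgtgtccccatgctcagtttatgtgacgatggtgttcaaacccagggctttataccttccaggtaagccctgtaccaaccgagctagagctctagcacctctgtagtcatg

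Libraries of a stage had Pearson correlations across peaks of 0.838 to 0.871 (early) and 0.838 to 0.908 (late), and correlations between the stages were 0.802 to 0.874. The insertion counts and the depth of the libraries were not used here. Late library 1 stood apart from the other late libraries. Its score on the first principal component (21.8% of the variance) was −18.5 where the other 3 had 112 to 120, nearer to the early libraries than theirs, and on the second (17.5%) it had 208 where all other libraries had −110 to 21.3. Early library 1 stood apart on the first component, at −185 where the other 3 early libraries had −58.3 to −43.6. Without late library 1, 173 peaks opened and 430 closed, among them 83 of the 120 and 219 of the 274. The counts were also moved by other libraries: without early library 1, 48 peaks opened and 68 closed, 39 and 67 of them among the 120 and the 274. Nothing in the labels says that the pools came from separate litters or cultures, so p-values measure the spread between libraries. For limma this spread was estimated over all 44 libraries of the series, not over the 8 compared.

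The labelled tissue was set against start-site peaks of marker genes. Over 24 peaks within 1 kb of the start sites of 12 epiblast genes (*Pou5f1*, *Sox2*, *Nanog* and others), the mean rlog was 4.25 to 4.43 in the early and 4.30 to 4.49 in the late libraries. Over 22 peaks of 10 primitive endoderm genes it was 2.74 to 3.15 and 2.64 to 3.24, and over 19 peaks of 11 trophectoderm genes 3.12 to 3.58 and 3.26 to 3.91. In every library the mean over all peaks within 100 bp of a start site was below that of the epiblast list and above those of the endoderm and trophectoderm lists, which take in peaks farther from the start. Single markers did not follow the lists: the start of *Gata6*, an endoderm factor, had 5.49 early and 5.28 late, as high as that of *Nanog* (5.13 and 5.19), so these levels do not identify the cells. The ranges of the stages overlapped in all 3 lists, and 0 of these peaks were called by limma. In pooled ICMs, fewer cells with an open site and less opening in each cell cannot be told apart.

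The stages were separated as whole profiles. The distance between the mean profiles was 1.00 times the typical distance (root mean square) between a library and the mean of its stage, and no other split of the 8 libraries into 4 and 4 gave more (exact permutation test, two-sided, p = 0.0286, the smallest that 70 arrangements can give). Without early library 2 or early library 3 the exact permutation p was 0.0571. For *Sox2* Ctrl the ratio was 0.980 (exact permutation p = 0.0571) and for *Pou5f1*-KO 1.08 (p = 0.0286, exact permutation test).

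**Figure D1:**
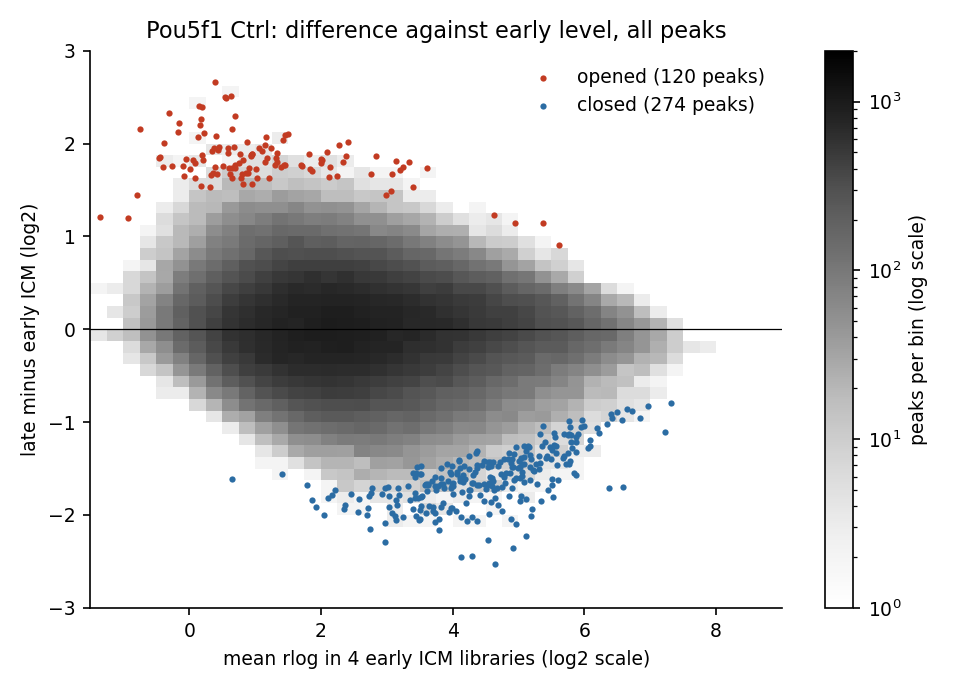
Difference between late and early ICM (log2, vertical) against the mean rlog of the 4 early libraries (horizontal) in *Pou5f1* Ctrl. Grey shading counts all 152393 peaks per bin on a log scale, red points are the 120 opened and blue points the 274 closed peaks. Opened peaks sit at the weak end (median early rlog 0.85) and closed peaks at the strong end (median 4.54).

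The opened peaks gained 1.80 (median log2 difference) and reached a median of 2.77 in the late ICM, about the level of a typical peak. The closed peaks changed by −1.62 (median) and came down to 2.85. The median over all peaks was 0.014. Late and early libraries did not overlap in 107 of the 120 and 248 of the 274 peaks, where 2.95% of all peaks had every late library above every early one and 2.99% every late library below. The peaks were called on these same libraries, so this follows from the choice and is a description only. At an unadjusted p under 0.05, 7315 peaks were higher (4.8%) and 8056 lower (5.29%).

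Few of the changes lay at start sites. Within 100 bp of a start site were 2 of the 120 opened (1.67%) and 1 of the 274 closed peaks (0.365%), and 7.77% of all peaks. Introns held 52 opened and 136 closed peaks and intergenic sequence 61 and 130. The median distance to a start site was 14.4 kb for opened and 8.79 kb for closed peaks, against 6.76 kb for all. Windows covered mostly by repeats in the reference made up 28.3% of the opened, 22.6% of the closed and 22.95% of all peaks.

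The largest opening was 12.7 kb upstream of *Sqle*, which encodes squalene epoxidase of cholesterol synthesis. The rlog was 0.50, −0.21, 0.96 and 0.33 in the early and 3.33, 2.91, 3.03 and 2.97 in the late libraries. The late libraries were all far above the early ones, and the difference was 2.67 ± 0.41 (SE; limma, adjusted p = 4.54e-05). A second peak, 20.4 kb upstream of *Sqle*, had −0.36, −0.43, −0.36 and 0.52 early and 3.17, 2.24, 1.19 and 1.63 late (2.22 ± 0.39, adjusted p = 0.00097 by limma). Both were open in the late ICM of both Ctrl lines. The first *Sqle* peak rose from 0.07 to 3.24 in *Sox2* Ctrl (adjusted p = 1.97e-07) and the second from 0.28 to 1.96 (adjusted p = 0.0175 by limma), while late *Pou5f1*-KO ICMs had 0.27 and −0.10.

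Other large openings lay more than 20 kb from the nearest protein-coding start. The peak in an annotated intron of A830018L16Rik (chr1:11473184-11473383) had 0.24, 1.06, 0.24 and 1.01 early and 3.13, 3.32, 3.26 and 2.89 late, a gain of 2.51 ± 0.46. In *Sox2* Ctrl this peak had 1.86 and 1.77, a difference of −0.09. The intergenic peak whose nearest gene was *Mmp16*, a membrane-bound matrix metalloproteinase, had 1.23, 0.09, 0.78 and 0.05 early and 3.85, 2.89, 2.76 and 2.67 late (2.51 ± 0.47). It was called in *Sox2* Ctrl as well (1.66 to 3.81, adjusted p = 0.0102 by limma), and so was the peak 23.5 kb downstream of the start of *Arhgef19*, a guanine nucleotide exchange factor (2.49 ± 0.45 here, 1.86 in *Sox2* Ctrl). In all 3 of these peaks the late *Pou5f1* Ctrl libraries lay above every early library.

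The remaining large openings were near *Fam43a* (2.40 ± 0.43), *Slc22a30*, of the organic anion transporter family (2.39 ± 0.44), *Dhx35*, an RNA helicase (2.33 ± 0.40), *Grxcr1*, a glutaredoxin domain protein of hair cells (2.30 ± 0.45), and, in an intron, *Btbd11* (2.27 ± 0.38). Their adjusted p by limma was 0.000437 to 0.00311. The *Dhx35* window, shown above with the OCT4 and SOX2 element, had −0.41, −0.48, 0.19 and −0.51 early and 1.74, 2.61, 1.82 and 1.93 late. It was near 0 in every early library and well above in every late one. A gene named by distance need not be the gene a peak acts on.

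The largest closing was in an intron of *Ptprn2*, a phosphatase-like protein of secretory vesicles. It had 4.40, 4.43, 4.52 and 5.19 early and 1.91, 2.71, 1.49 and 2.31 late, a difference of −2.53 ± 0.39 (limma, adjusted p = 4.54e-05). This window held 2 copies of AGATAAG. The peak also closed in *Sox2* Ctrl (4.65 to 3.19, adjusted p = 0.0458 by limma), and in *Pou5f1*-KO it went from 3.48 to 2.22 (adjusted p = 0.0568, limma).

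The *Tmem56* intron had 4.70, 3.98, 4.62 and 3.89 early and 1.45, 1.81, 2.11 and 2.06 late, −2.44 ± 0.35 with the smallest adjusted p of the closed peaks named here (1.74e-05, limma). The *Myo16* intron, in the gene of an unconventional myosin, had 5.08, 5.21, 4.89 and 5.26 early and 3.26, 2.81, 2.41 and 3.07 late (−2.23 ± 0.38). The window near *Rab3b*, a small GTPase of exocytosis, had 3.74, 4.17, 3.82 and 3.40 early and 1.34, 2.02, 1.41 and 1.73 late (−2.16 ± 0.40). In these GATA windows the stages were apart by more than the spread of either group. In *Pou5f1*-KO the *Tmem56* peak had 5.80 early and 4.69 late, the *Rab3b* peak 3.81 and 4.52, and the *Myo16* peak 5.26 and 3.53. Only the last of these differences was called (adjusted p = 0.00513, limma). In *Sox2* Ctrl none of the 3 was called: *Tmem56* had 3.19 and 2.53, *Rab3b* 2.81 and 3.11, and *Myo16* 3.84 and 2.77.

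The other large closings were near *Plppr5* (−2.45 ± 0.43), *Arhgap26*, a GTPase-activating protein (−2.36 ± 0.35), *Itga9*, an integrin subunit (−2.29 ± 0.43), *Trim36*, a ubiquitin ligase (−2.27 ± 0.44), *Stim1*, the calcium sensor of the endoplasmic reticulum (−2.16 ± 0.42), and *Icam2*, an adhesion molecule (−2.10 ± 0.37). The last lay in an intron of *Ern1*, and its window held AGATAAG. The adjusted p by limma of these 6 peaks was 4.13e-05 to 0.00406. None was called in *Sox2* Ctrl, where the *Trim36* peak had 2.72 early and 3.02 late and the *Stim1* peak 1.82 at both stages.

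**Figure D2:**
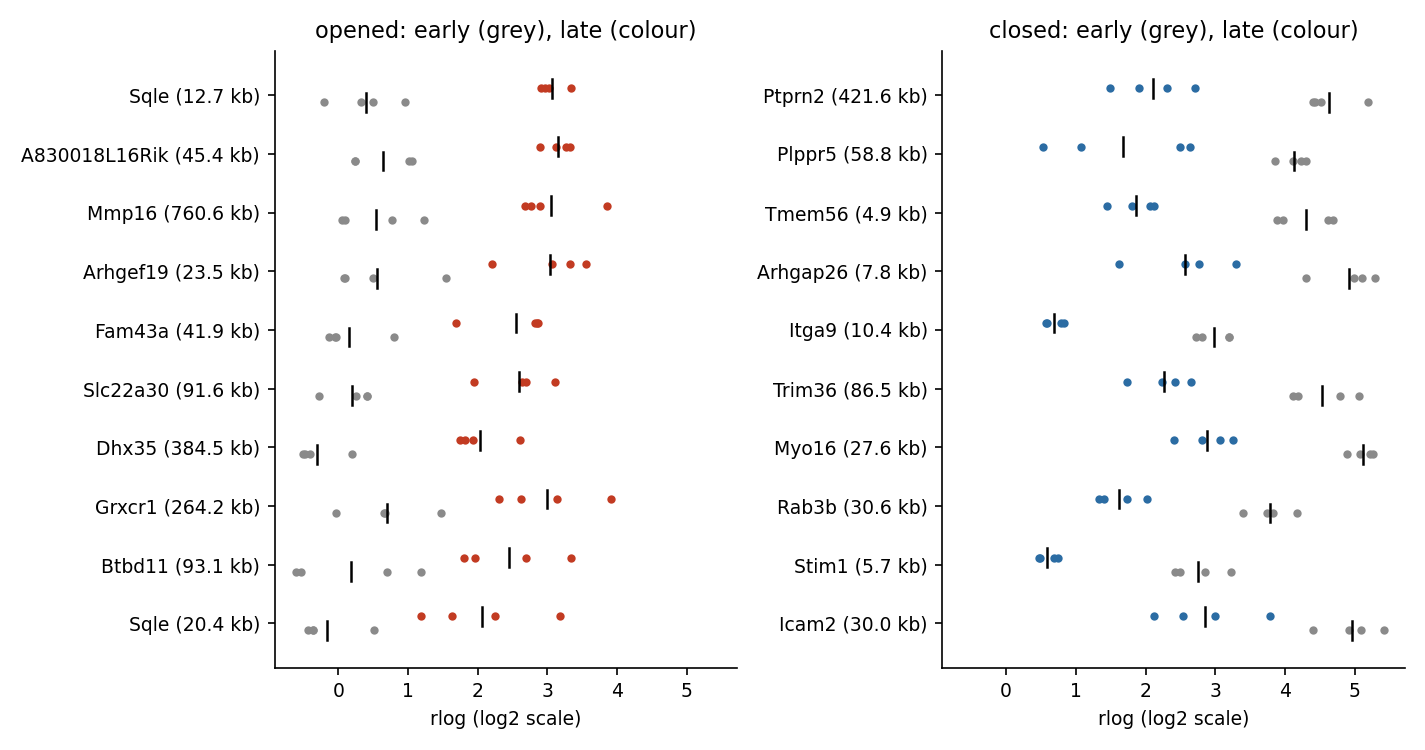
The rlog values (log2 scale, horizontal) of each library at the 10 opened (left) and 10 closed peaks (right) with the largest difference, named by the nearest protein-coding start site and its distance. Grey points are the 4 early and coloured points the 4 late *Pou5f1* Ctrl libraries, and black ticks are means. At each peak the stages do not overlap, by the rule that chose these peaks.

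GATA was the word that set the closed peaks apart. It stood in 37.96% of the closed, 0.83% of the opened (1 peak) and 7.71% of all windows. Of the 11748 windows with AGATAAG, 104 closed (0.885%), against 0.18% of all peaks, and 1 opened. The median difference fell with the number of copies: it was 0.03 in 140645 windows with none, −0.24 in 10723 with 1 and −0.44 in 1025 with 2 or more copies. Among peaks over 1 kb from every start site the share was 39.6% of the closed and 8.63% of all.

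The shift of the GATA windows was seen in each library. Relative to the mean of all peaks of the same library, the 11748 windows had 0.08, −0.11, −0.04 and 0.05 in the early and −0.20, −0.32, −0.32 and −0.26 in the late *Pou5f1* Ctrl libraries. All late libraries lay below all early ones. In *Sox2* Ctrl the same windows had −0.05, 0.26, 0.14 and 0.14 early and −0.16, −0.15, −0.09 and −0.09 late, again without overlap.

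In *Pou5f1*-KO the GATA windows had 0.18, 0.15, 0.21 and 0.39 early and 0.20, 0.15, 0.24 and 0.20 late, and the stages overlapped. The medians of the stage difference there were −0.02 in windows with no copy and −0.05 with 1. The 104 closed peaks with the word did fall in *Pou5f1*-KO, with a median of −0.58 and 90 negative. The 170 closed peaks without it had −0.62 and 157 negative, where 51.8% of all peaks were negative. Windows with 2 or more copies had a median stage difference of −0.44 in *Pou5f1* Ctrl, −0.38 in *Sox2* Ctrl, −0.02 in *Sox2*-KO and −0.16 in *Pou5f1*-KO. No test was made of how these shifts differ. In morulae and late morulae of the Ctrl line, which had no inhibitor, the mean over the GATA windows was 0.07 and 0.05 above all peaks. GC content moved between libraries too (r of −0.164 to 0.143 between a library's deviation and the GC of the window), and with the values centred within 20 bins of GC content the median of the GATA windows was −0.24 in place of −0.25.

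**Figure D3:**
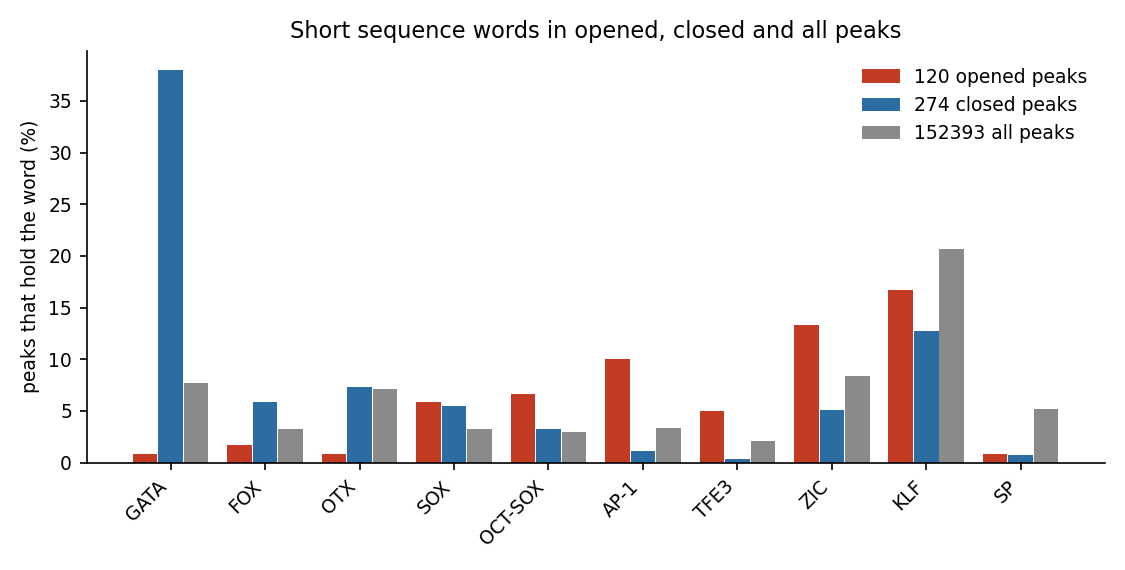
Share of peaks (percent) whose 200 bp window holds each of 10 of the 25 short words, for opened (red), closed (blue) and all peaks (grey). The GATA bar stands at 37.96% of closed peaks against 7.71% of all. The AP-1, OCT-SOX, TFE3 and ZIC bars are higher for opened than for closed and all peaks. The SOX bar is above that of all peaks in both sets.

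The opened peaks had no single word of that weight. The AP-1 word, bound by FOS and JUN factors, stood in 12 of 120 (10.0%) against 3.33% of all, the OCT4 and SOX2 element in 8 (6.67% against 3.00%), the TFE3 word in 6 (5.0% against 2.10%) and the ZIC word CCTGCTG in 16 (13.3% against 8.40%). The FOXH1 word AATCCACA stood in 3 opened (2.5%) and 5 closed peaks (1.82%), against 0.60% of all. The SOX word CCNTTGTT stood in 7 (5.83%) and 15 (5.47%), against 3.21%. These are counts of few peaks and were not tested. The AP-1 share moved with single libraries: it was 0 of 48 opened peaks without early library 1, 2 of 43 without late library 2, 4 of 70 without late library 3, 2 of 50 without late library 4 and 26 of 173 without late library 1. Without early library 2, 3 or 4 it was 8.96%, 8.33% and 8.66%. The share with the OCT4 and SOX2 element was 5.56% to 10.0% with 1 library left out. The SP word GGGCGGGG, common at start sites, stood in 1 opened and 2 closed peaks, 0.83% and 0.73% against 5.16%.

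Over all windows with a word, only some of these shifts were seen in every library. Windows with the TFE3 word, bound by TFE3 and related factors, were 0.31 to 0.34 above the mean of all peaks in the early and 0.42 to 0.55 in the late libraries, without overlap. In *Sox2* Ctrl they had 0.26 to 0.42 and 0.33 to 0.36, which overlapped. Windows with the OCT4 and SOX2 element had −0.03 to 0.30 early and 0.15 to 0.28 late, and those with AP-1 −0.36 to −0.25 and −0.29 to −0.07, and in both the stages overlapped. The larger step of the OCT4 and SOX2 windows was before the early ICM: the mean was −0.41 in morulae, −0.64 in late morulae, 0.11 in early and 0.23 in late ICM of the Ctrl line, and −0.72 and −0.81 in early and late *Pou5f1*-KO ICM.

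Windows with the OTX word GGATTAA and the T-box word AGGTGTGA were lower at each later stage. OTX windows stood at 0.30 relative to all peaks in morulae, −0.35 in late morulae, −0.69 in early and −0.81 in late ICM, and T-box windows at 0.20, 0.04, −0.52 and −0.61. For OTX the early libraries had −0.72 to −0.65 and the late −0.85 to −0.76, which did not overlap, but in *Sox2* Ctrl they did (−0.74 to −0.52 and −0.75 to −0.63). The T-box windows overlapped in *Pou5f1* Ctrl (−0.58 to −0.43 and −0.66 to −0.52). OTX words were in 20 closed peaks and 1 opened peak, 7.30% and 0.83% against 7.08% of all.

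**Figure D4:**
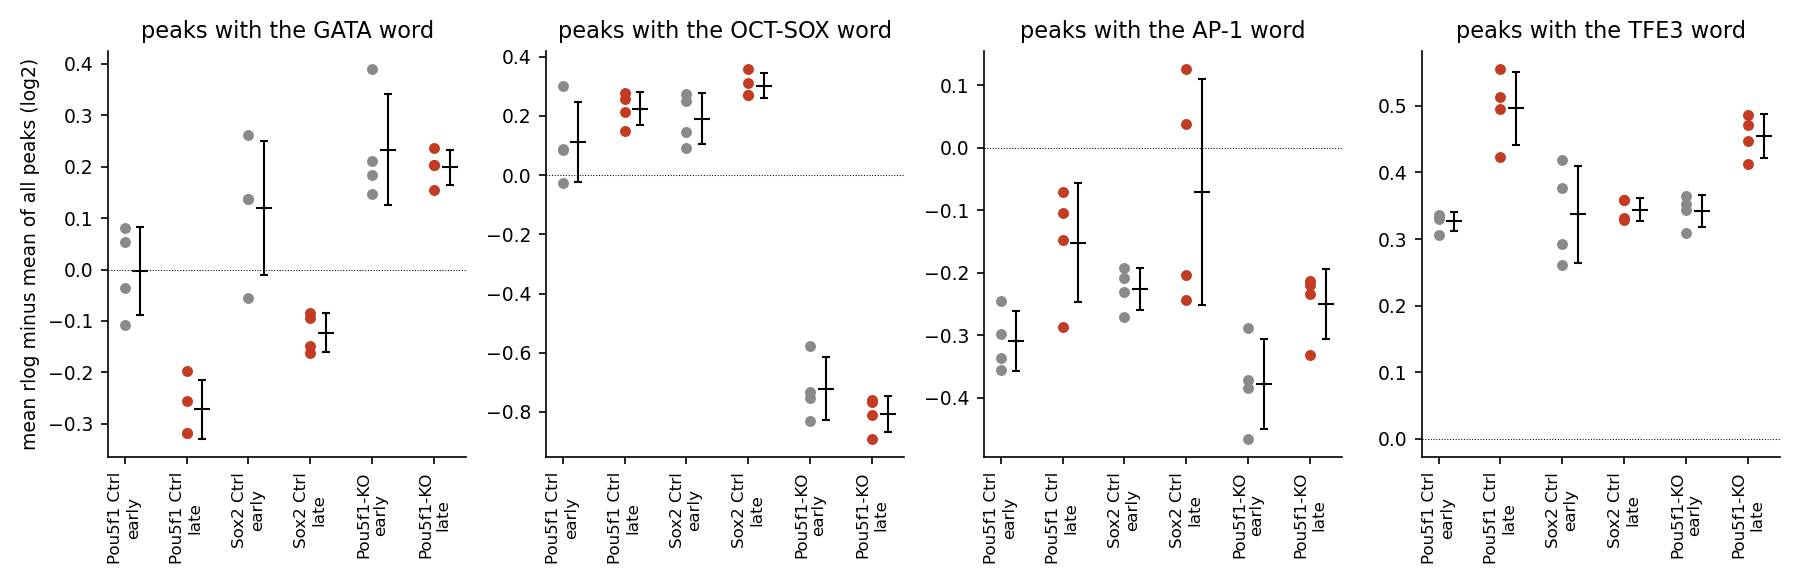
Mean rlog over all windows with a word minus the mean over all peaks of the library (log2, vertical), for GATA, OCT-SOX, AP-1 and TFE3 in early (grey) and late (red) ICM of *Pou5f1* Ctrl, *Sox2* Ctrl and *Pou5f1*-KO. Points are libraries, bars mean and SD (n = 4), and each panel has its own scale. The stages do not overlap at GATA windows in the Ctrl lines, and they overlap in *Pou5f1*-KO.

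The counts by gene list that follow are to be set against all peaks, of which 0.0787% opened and 0.18% closed, and 4.8% were higher and 5.29% lower at an unadjusted p under 0.05. At these shares a list of this size holds few calls or none, so a count of 0 is no result about the list. Pluripotency loci were open at both stages. Of 199 peaks within 10 kb of the start sites of 24 core and naive pluripotency genes, 0 were called by limma, 8 were higher and 4 lower at an unadjusted p under 0.05, and the median difference was 0.05. The 8 and 4 peaks are 4.02% and 2.01% of the list. At the start of *Nanog*, a core factor of the epiblast, the libraries had 5.08, 4.80, 5.64 and 5.01 early and 5.23, 4.99, 5.43 and 5.10 late. The *Pou5f1* start site, the gene whose maternal copy is deleted, had 5.46, 5.84, 5.60 and 5.01 early and 5.10, 5.13, 5.15 and 4.09 late, a difference of −0.61 ± 0.33 (adjusted p = 0.529, limma). The peak 480 bp upstream of the *Sox2* start had a mean of 4.09 ± 0.34 (SD, n = 4) early and 4.48 ± 0.07 late. None of these differences was called, and the ranges of the stages overlapped at each of the 3 sites.

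The 9 enhancers that the study tabulates, at *Prdm14*, *Pecam1*, *Pou5f1*, *Sox2*, *Klf4*, *Nanog* (a distal and a proximal one), *Utf1* and *Klf2*, had differences of −0.29 to 0.99, and none was called by limma. The highest was the SRR2 enhancer of *Sox2*, with 2.23, 3.22, 3.89 and 4.15 early and 3.85, 4.88, 4.19 and 4.56 late (0.99 ± 0.43, adjusted p = 0.391, limma), where the stages overlapped. The CR4 enhancer of *Pou5f1* had 6.64 ± 0.22 early and 6.60 ± 0.14 late, and the distal enhancer of *Nanog* 6.87 ± 0.23 and 6.93 ± 0.15 (SD, n = 4). Both were among the strongest values here and differed by less than 1 SD.

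Of the formative and primed genes, which mark the exit from naive pluripotency, 1 of 145 peaks within 10 kb of a start site opened and 0 closed, and the median was −0.02. The peak was the start site of *Etv1*, an ETS factor (chr12:38779362-38779561), 81 bp downstream of the start. It had 3.42, 3.38, 3.15 and 4.51 early and 5.76, 5.12, 5.11 and 5.41 late (1.74 ± 0.43, adjusted p = 0.0459, limma). All late libraries were higher, but the call was lost with quantile normalization. In *Sox2* Ctrl it had 3.95 early and 5.47 late (adjusted p = 0.071, limma), and in *Pou5f1*-KO 1.19 and 1.30. The starts of *Otx2* and *Fgf5*, formative markers, had 3.27 and 1.89 early and 3.04 and 1.84 late, within the spread.

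Primitive endoderm loci had the lowest median of the 13 gene lists, −0.14 over 142 peaks of 22 genes, against 0.014 over all peaks. Of these peaks 1 closed and 0 opened, and 11 were lower (7.75%, against 5.29% of all peaks) and 3 higher (2.11%, against 4.8%) at an unadjusted p under 0.05. In *Sox2* Ctrl the median over the same peaks was 0.00. Over the 22 peaks within 1 kb of the start sites of 10 endoderm marker genes, the median in *Pou5f1* Ctrl was 0.12. The closed peak lay in an intron of *Gata4*, 8.46 kb upstream of its nearest start, and had 4.25, 3.93, 3.33 and 3.79 early and 1.52, 2.62, 1.94 and 1.54 late (−1.92 ± 0.40, adjusted p = 0.0094, limma). In *Sox2* Ctrl this peak had 2.56 and 2.67, and in *Pou5f1*-KO 4.08 and 3.08. The start of *Gata4* itself was low in library 1 of each stage (1.56 early and 1.94 late), and its means of 2.81 early and 2.97 late did not differ beyond the spread (adjusted p = 0.947, limma).

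With peaks anywhere in a gene or within 10 kb of it, 2 of 247 peaks of the endoderm list closed. The second was in an intron of *Col4a2*, a basement membrane collagen (chr8:11334611-11334810), with 5.97, 5.41, 4.71 and 5.01 early and 4.21, 2.97, 3.46 and 3.79 late (−1.67 ± 0.31, adjusted p = 0.00197, limma). Its window held AGATAAG, and in *Sox2* Ctrl it went from 5.01 to 3.99 (adjusted p = 0.103, limma). The starts of *Gata6* (5.49 and 5.28) and *Sox17* (3.44 and 3.71) gave adjusted p of 0.842 and 0.881 by limma.

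Trophectoderm loci had 0 calls by limma among 191 peaks of 24 genes, with a median of 0.07, and 9 higher and 8 lower at an unadjusted p under 0.05. The start of *Cdx2*, a trophectoderm factor, had 4.34, 4.99, 4.86 and 2.98 early and 4.99, 4.76, 4.98 and 4.97 late, so its lower early mean came with 1 low library, early 4. *Gata3* had 4.26 and 4.25. Early library 4 was also the highest early library over the opened peaks, at 1.39 where the other 3 had 1.02 to 1.06.

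The signalling and other lists had few calls or none. Of the Hippo pathway genes, 1 of 227 peaks closed (0.18% of all peaks did), 7.82 kb upstream of *Wwtr1*, which encodes the coactivator TAZ (6.17, 5.84, 6.09 and 5.89 early, 5.37, 4.51, 5.04 and 4.88 late, adjusted p = 0.0461, limma). Near start sites (up to 10 kb away), limma called 0 peaks in the FGF and ERK (230 peaks, 5 higher and 8 lower at an unadjusted p under 0.05), LIF and STAT3 (117 peaks, 7 and 7), Nodal and BMP (153 peaks, 7 and 11), WNT (138 peaks, 10 and 3) and DNA methylation lists (150 peaks, 5 and 6). The cell adhesion, polarity and lumen list had 0 calls by limma among 232 peaks with 13 higher and 4 lower, and, of 457 peaks in the genes or within 10 kb, 2 closed (0.438%, against 0.18% of all peaks), in introns of *Cgnl1*, a junction protein (−1.26 ± 0.30), and *Cdh2*, N-cadherin (−1.57 ± 0.38). Both windows held AGATAAG. The list of the 2-cell stage and morula (83 peaks, 4 higher and 5 lower) and the housekeeping list (104 peaks, 5 and 2) had 0 calls by limma.

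Called peaks were spread over many genes. Of the protein-coding genes, 63 had an opened peak within 10 kb or inside and 189 had a closed one, and 3 and 11 had more than 1. *Cd38*, an NAD glycohydrolase, and *Btbd11* had 2 opened peaks each, as did Gm20388, whose annotated span holds 542 peaks. *Elovl2*, *Nlrp4f*, *Sparcl1*, *Kng2*, *Pianp* and *Wipf3* had 1 opened peak among 4 or fewer. At *Cd38*, 7 of 8 peaks were higher, with a median of 0.95. Those with 2 closed peaks and the fewest peaks were *Fam83d*, *Kcnj15*, *Allc*, *Adora1*, *Kif21b*, *Slco5a1*, *Mecom*, *Ston2*, *Zfp407* and *Mrtfa*. All 7 peaks of *Kcnj15*, a potassium channel, and all 10 of *Allc*, an allantoicase, were lower, with medians of −0.94 and −0.75. At *Slco5a1* 8 peaks were higher and 8 lower, and at *Fam83d* 3 and 4. By nearest start site at any distance, opened peaks with gains of 1.87, 1.93, 1.96 and 2.20 were nearest to *Tox*. Closed peaks with −1.31, −1.28, −1.26 and −1.12 were nearest to *Kcnj15*.

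The called peaks were then read in the other groups, whose libraries had no part in the differences but did enter the common estimate of the spread behind the calls. In *Sox2* Ctrl the 120 opened peaks had a median stage difference of 0.82 and 81.7% were positive, against 52.1% of all peaks. The 274 closed peaks had −0.42 and 84.3% were negative, against 47.9%. Of the opened peaks, 20 were also called in *Sox2* Ctrl, 16.7% of the 120 and 2.77% of the 723 opened there (0.474% of all peaks). Of the closed, 12 were, 4.38% of the 274 and 6.52% of the 184 closed there (0.121% of all). No peak was called in the opposite direction. The sizes are not like for like, since the peaks were chosen for a large difference in *Pou5f1* Ctrl.

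Opened and closed peaks parted in *Pou5f1*-KO. There the opened peaks had a median stage difference of 0.06, with 54.2% positive, against 48.2% of all peaks. Of the opened peaks, 2 were called (1.67% of the 120, against 1.52% of all peaks opened in *Pou5f1*-KO). The closed peaks had −0.61, with 90.1% negative, against 51.8% of all peaks, and 26 called (9.49% of the 274, against 0.678%). In *Sox2*-KO the medians were 0.11 and −0.21, against −0.01 over all peaks.

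The mean over the 120 opened peaks was 2.80 to 3.03 in the late *Pou5f1* Ctrl libraries and 2.09 to 2.51 in late *Sox2* Ctrl, but 1.09 to 1.25 in late *Pou5f1*-KO and 1.26 to 1.43 in late *Sox2*-KO. In morulae it was 0.82 (0.70 to 1.00) and in late morulae 0.89 (0.80 to 0.98). In early ICM it was 1.13 (1.02 to 1.39) in *Pou5f1* Ctrl and 1.51 (1.32 to 1.68) in *Sox2* Ctrl, above the morulae in each library. The low early level in *Pou5f1* Ctrl follows in part from the choice of peaks. The closed peaks were open from the morula on. They had 4.42 in morulae, 4.01 in late morulae and 4.48 in early ICM, then 2.88 in late *Pou5f1* Ctrl, 3.62 in late *Sox2* Ctrl, 3.88 in late *Pou5f1*-KO and 3.76 in late *Sox2*-KO ICM. The steps from morula to ICM are also steps between treatments.

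**Figure D5:**
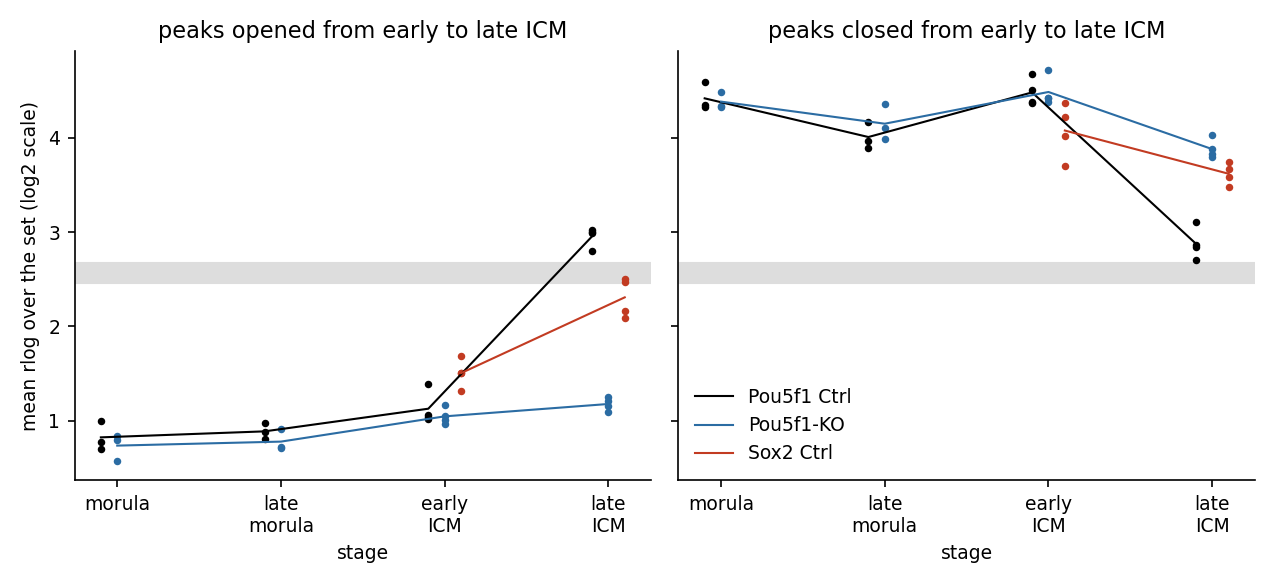
Mean rlog (log2 scale, vertical) over the 120 opened (left) and 274 closed peaks (right) by stage, in *Pou5f1* Ctrl (black), *Pou5f1*-KO (blue) and *Sox2* Ctrl (red). Points are libraries, lines join means, and the grey band is the range of the mean over all peaks in all libraries. The opened set has 1.02 to 1.39 in early and 2.80 to 3.03 in late *Pou5f1* Ctrl ICM. It has 1.32 to 1.68 and 2.09 to 2.51 in *Sox2* Ctrl, and 0.96 to 1.16 and 1.09 to 1.25 in *Pou5f1*-KO.

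The differences between these stage changes did not pass the test at any single peak. For *Pou5f1* Ctrl against *Sox2* Ctrl, 0 peaks had a more positive and 0 a more negative late minus early difference by limma (lowest adjusted p = 0.101), with 4529 and 6159 at an unadjusted p under 0.05. For *Pou5f1* Ctrl against *Pou5f1*-KO there were 0 and 0 by limma (lowest adjusted p = 0.0754), with 5678 and 6453. The standard error of such a difference of differences was 0.61 (median over peaks), so these counts do not show that the changes were alike.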

How the data were processed

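The 8 ATAC-seq libraries compared are the early and late ICM libraries of *Pou5f1* Ctrl embryos, grouped by their labels. The authors aligned reads to mm10 (Bowtie2), removed duplicates (Picard), called peaks (MACS2), merged the summits of all conditions, counted Tn5 insertions in 200 bp windows with bedtools and made the deposited log2 values with the rlog function of DESeq2 over all libraries (versions are not given in the sources used here). The rlog shrinks weak peaks, so their differences are understated. The depth is unknown here, and the deposited table of group means was not used. Positions are in GRCm38 (mm10), with genes of GENCODE vM21.

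Stages were compared with limma 3.58.1 (with a mean-variance trend, R 4.3.3) over all 44 libraries with a mean per group, two-sided, with Benjamini-Hochberg adjustment over all peaks, and called at an adjusted p under 0.05. The calling was tested on simulated data. Tables were made with Python 3.11.15. Nearest genes are protein-coding. The 25 words were searched on both strands, without mismatch except for the OCT4 and SOX2 element, and words may overlap.

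Named are the 10 opened and 10 closed peaks with the largest difference among called peaks whose stages do not overlap, list genes with a called peak, 10 defining genes with the peak nearest a start, the 10 genes with the most opened and with the most closed peaks, and the study's 9 enhancers; 1 gene that this rule names is not reported here. Peaks, lists and words were chosen with earlier results of these data known. Alternatives were a fit of just the 8 libraries, a test of just the stronger peaks (from the median rlog up), quantile normalization, centring within 20 bins of GC content, a minimum absolute difference of 1, leaving out each library, and the replicate number as a block.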

Additional observations from a re-analysis of the deposited data

Results flagged for a closer look

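In 12 of 132 groups of 4 libraries that were looked at, 1 library lay far from the other 3 (Dixon's test, by which chance marks about 1 group in 20). At opened peaks these were the highest early library near *Fam43a* (0.79), near *Dhx35* (0.19) and at the *Sqle* peak 20.4 kb upstream (0.52), the lowest late library near *Fam43a* (1.69), and, over the 120 opened peaks, the highest early mean (1.39) and the lowest late mean (2.80). At the closed *Ptprn2* peak it was the highest early library (5.19). None of these libraries reached the other stage, which follows from how the peaks were chosen. At start sites it was the lowest late library of *Pou5f1* (4.09), *Cdx2* (4.76) and *Otx2* (2.20), and the lowest library of *Gata4* in both early (1.56) and late ICM (1.94). The *Gata4* values were those of library 1 of each stage.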

How the results depend on the processing

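The 20 peaks with the largest differences kept their direction and their call with only the 8 libraries in the fit, quantile normalization, GC correction, the replicate block and each library left out. They were chosen as called peaks without overlap and with the largest differences, so this follows largely from the choice. The counts moved more. Opened and closed peaks numbered 183 and 349 with only the 8 libraries in the fit (89 and 238 of them among the 120 and 274), 123 and 335 with quantile normalization, 152 and 302 with GC correction, 119 and 263 with an absolute difference of at least 1, and 28 and 282 with only the peaks from the median rlog up tested. With 1 library left out they were 43 to 173 and 68 to 430. The opened count moved over 1.5 times without late library 2 (43), 3 (70) or 4 (50) and without early library 1 (48), 2 (67) or 3 (72), and the closed count without late library 1 (430), 2 (96), 3 (136) or 4 (140) and early library 1 (68), 2 (172) or 4 (150). The cause was not tested, and fewer libraries leave less to call from. AGATAAG stood in 30.9% to 43.8% of the closed peaks and the AP-1 word in 0% to 15.0% of the opened peaks under the settings tried for them, which were chosen after seeing the data. The separation ratio was 1.05 to 1.15 with 1 library left out (exact permutation p = 0.0286 or 0.0571).

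With the replicate number as a block, over the libraries compared, 582 opened and 883 closed, and 597 and 823 with GC correction too. The labels do not say that a number marks a shared litter or day. In *Pou5f1* Ctrl, libraries of the same number had correlations of their deviations of 0.144, 0.038, 0.026 and 0.019 (other pairs −0.115 to 0.085), and 1 of 4 early libraries correlated best with its own number, so the numbers were not taken as pairs. In *Pou5f1*-KO the correlations were 0.123, 0.054, 0.084 and −0.003, and 3 of 4 did. The replicate block gave a separation ratio of 1.47, where 16 arrangements cannot go below an exact permutation p of 0.125.

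In *Sox2* Ctrl the opened count was 164 to 758 and the closed 29 to 306 with 1 library left out, 446 and 54 with the replicate block, and 201 and 74 in the peaks from the median rlog up, and the closed count was 77 with only the libraries compared and 288 with quantile normalization. For the difference from *Sox2* Ctrl, 0 to 2 peaks had a more positive and 0 to 9 a more negative stage difference with 1 library left out, and 4 a more negative one with the replicate block. For the difference from *Pou5f1*-KO the counts were 0 and 0 to 1, with 1 more positive and 1 more negative with only the libraries compared, 1 and 1 with the replicate block and 1 more negative with quantile normalization. The lists' calls were the same with quantile normalization except that the *Etv1* peak was lost.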
